A study of Mus musculus with 384 samples.

Results

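Krüppel-like factors (KLF proteins) are zinc finger transcription factors that bind GC-rich and CACCC sequences in promoters and enhancers. Some recruit co-activators and others, such as KLF3, recruit the CtBP co-repressors. In the epidermis KLF4 is known for its role in barrier formation, and several Klf genes, Klf2, Klf4, Klf6 and Klf10 among them, are known as rapidly induced genes in other cells, as is Fos, a subunit of the AP-1 transcription factor. The genes described are Klf2, Klf3, Klf4, Klf5, Klf6, Klf9, Klf10 and Klf13, chosen by symbol. They are 8 of the 46609 rows of the expression table, of which 46517 are genes and the rest ERCC spike-in RNAs.

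Sorted cells from the back skin of mice at postnatal day 70 were profiled individually by RNA sequencing with the Smart-seq2 full-length protocol. All mice carried Sox9-CreER, a tamoxifen-inducible recombinase under Sox9 regulatory sequence, the reporter R26-YFPfl/fl and NFIXfl/fl, that is, floxed alleles of the transcription factor gene Nfix. Double knockout (dKO) mice also carried NFIBfl/fl, while cKO mice carried NFIBfl/+, with 1 of their Nfib alleles floxed, so the cKO cells are not wild type. Live cells positive for integrin α6 and YFP were sorted as Sca-1-positive or Sca-1-negative. Sca-1, encoded by Ly6a, is known as a surface marker of the epidermis and the uppermost follicle that bulge stem cells lack.

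After removal of 6 wells with few genes, 378 of 384 cells were kept. The Sca-1-positive cells numbered 19 on dKO plate 2 and 22 on cKO plate 3. The Sca-1-negative cells numbered 93 and 61 on dKO plates 1 and 2, and 71, 47 and 65 on cKO plates 1, 2 and 3. The labels call all cells male, yet dKO plate 1 and cKO plates 1 and 2 held Xist RNA while dKO plate 2 and cKO plate 3 held Y-linked RNA, so each genotype holds cells of at least 2 animals. Values are therefore also given within each kind of plate. Which plates share an animal is not labelled, and plates are therefore not treated as replicates of a genotype. No test between genotypes or gates was run, and differences are described by whether plates overlap. Levels are in TPM, the share of a transcript in a cell after scaling by its length, which keeps no read depth. The median number of genes detected ran from 5189 to 5199 over the Sca-1-negative dKO plates and from 4805 to 5044 over the cKO plates, and was 4770 in dKO and 4808 in cKO Sca-1-positive cells. The gate matched its label: Ly6a averaged 124.6 and 68.4 TPM in Sca-1-positive dKO and cKO cells, against 25.95 and 19.7 TPM in Sca-1-negative cells of the same plates. Cd34, a bulge marker, averaged 0.165 and 0.362 TPM in Sca-1-positive dKO and cKO cells, against 48.4 and 44.3 TPM in their Sca-1-negative neighbours.

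The 250 bases upstream of the start are shown for Klf2, Klf4, Klf6 and Klf13, because these members had a rank correlation with Fos across cells of at least 0.3 on the 4 plates other than dKO plate 2. The sequences are RefSeq's on GRCm38.p6, which held 6 of the 8 members; Klf5 and Klf10 are named only. The window of Klf2 is chr8:72318812-72319061 on the plus strand and that of Klf4 is chr4:55532476-55532725 on the minus strand. The window of Klf6 is chr13:5861239-5861488 on the plus strand and that of Klf13 is chr7:63938916-63939165 on the minus strand. Each sequence runs 5′ to 3′ on the gene's own strand and ends at the base before the start. Capitals mark TGACG, the core of the cAMP response element, and TTGGC, the core bound by NFI proteins, each on either strand, so that a match on the other strand reads as its reverse complement.
Klf2: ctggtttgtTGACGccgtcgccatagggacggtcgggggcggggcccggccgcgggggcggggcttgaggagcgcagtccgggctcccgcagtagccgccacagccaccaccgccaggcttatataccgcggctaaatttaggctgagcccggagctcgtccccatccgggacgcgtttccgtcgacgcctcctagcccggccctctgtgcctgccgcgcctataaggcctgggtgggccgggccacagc
Klf4: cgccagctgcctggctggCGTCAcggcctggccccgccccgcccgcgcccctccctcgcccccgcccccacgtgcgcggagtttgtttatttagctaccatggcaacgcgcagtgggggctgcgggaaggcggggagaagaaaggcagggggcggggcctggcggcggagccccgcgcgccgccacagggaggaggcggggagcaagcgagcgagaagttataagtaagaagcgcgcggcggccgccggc
Klf6: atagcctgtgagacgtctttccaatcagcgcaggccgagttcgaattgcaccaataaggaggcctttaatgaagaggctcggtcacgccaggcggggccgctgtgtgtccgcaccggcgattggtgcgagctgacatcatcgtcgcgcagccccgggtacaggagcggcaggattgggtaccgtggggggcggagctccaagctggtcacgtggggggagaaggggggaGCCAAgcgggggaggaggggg
Klf13: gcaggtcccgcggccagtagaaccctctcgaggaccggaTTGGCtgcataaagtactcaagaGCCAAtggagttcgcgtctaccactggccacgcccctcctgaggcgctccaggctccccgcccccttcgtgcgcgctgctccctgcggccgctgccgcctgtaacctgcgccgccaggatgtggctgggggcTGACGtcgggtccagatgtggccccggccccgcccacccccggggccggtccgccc

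TGACG stands 241 bases before the start of Klf2, 232 before that of Klf4, 56 before that of Klf13 and 46 before that of Klf9, and does not occur in the windows of Klf3 and Klf6. The Fos window holds it 2 times. Of 32841 mouse promoter windows of the same length, 17.8% hold TGACG. The NFI core TTGGC occurs 2 times upstream of Klf9, 2 times upstream of Klf13 and 1 time upstream of Klf6, and not in the windows of Klf2, Klf3 and Klf4, beside 41.5% of all windows. The full element TGACGTCA (1.55% of windows), the AP-1 element, TGACTCA or its variant TGAGTCA (4.46%), and the CArG box bound by serum response factor (1.47%) had no match in the windows of the 6 members or of Fos. None of these motifs overlap each other apart from TGACG within the full element. A match of letters is a description and does not show binding. Bases further upstream or past the start were not searched, so a motif without a match may still stand there, for Fos as for the members.

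All 8 members were detected in the Sca-1-negative cells, at levels that spanned more than an order of magnitude. Averaged over the 5 plates with equal weight, Klf3, a repressor, stood highest at 68.4 ± 28.95 TPM (SD over plates), followed by Klf4 at 41.9 ± 10.46 TPM and Klf5, a factor of proliferating basal keratinocytes, at 37.7 ± 6.001 TPM. Klf6 averaged 22.2 ± 7.12 TPM and Klf13 16.03 ± 4.89 TPM. Klf10, known as a TGF-β-inducible gene, averaged 7.57 TPM, and Klf9, a glucocorticoid receptor target, 7.42 TPM. Klf2, best known from endothelial cells, averaged 3.14 TPM and lay under the 5 TPM minimum that 7060 genes passed, so 7 of the 8 members counted as measured. The ranges of neighbours in this order overlapped over the plates except Klf5 above Klf6 and Klf13 above Klf10. Compared within each plate, Klf3 lay above Klf4, Klf6 above Klf13 and Klf9 above Klf2 on all 5 plates. Klf4 lay above Klf5 and Klf10 above Klf9 on 3 of 5. TPM is scaled by transcript length, so these levels may be compared between genes.

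**Figure D1:**
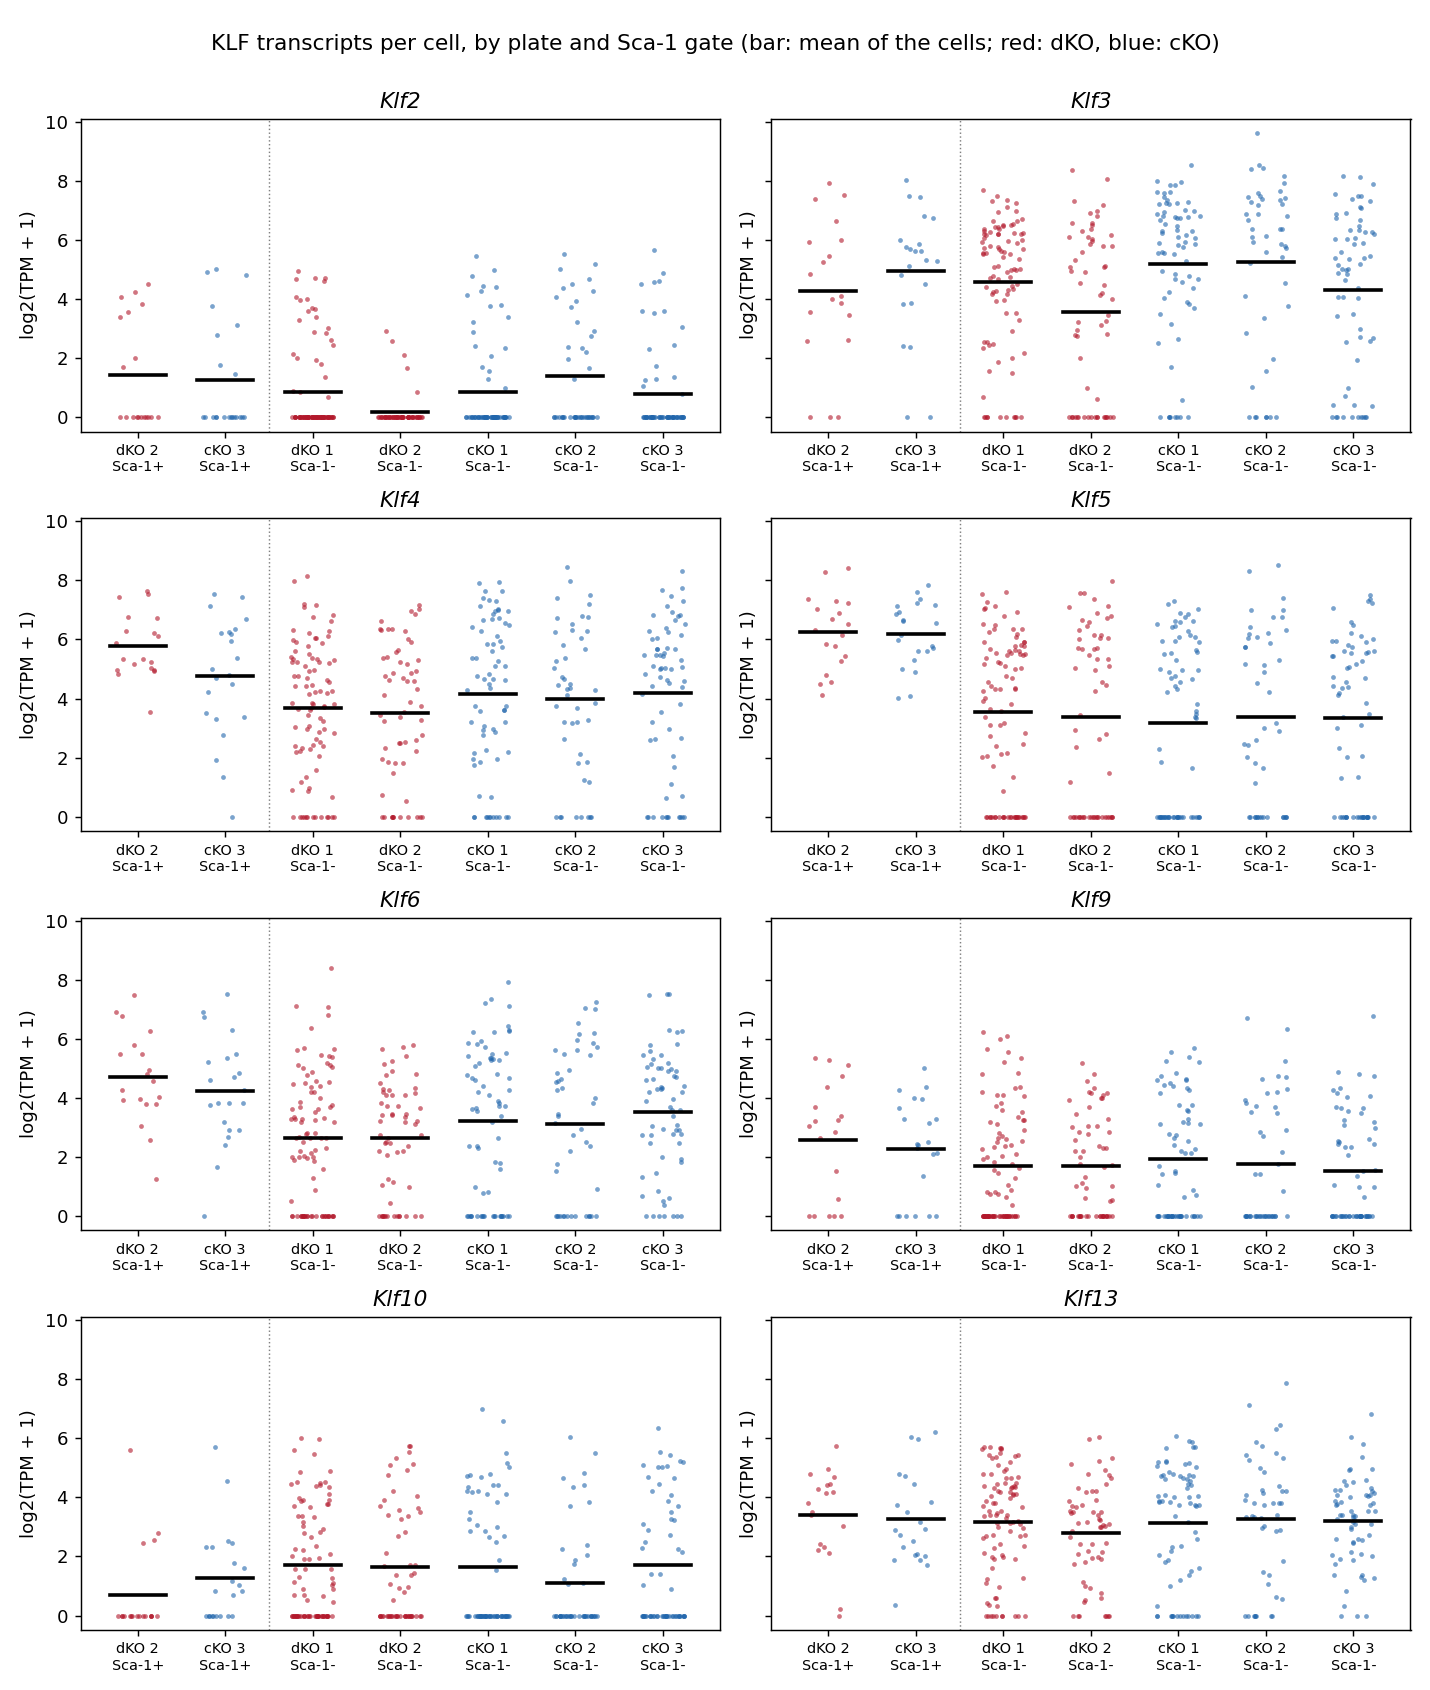
Each point is the log2(TPM + 1) of 1 KLF gene in 1 cell, by plate and Sca-1 gate (left of the dotted line: Sca-1-positive cells), and bars are means over cells of that log2 value. Every Sca-1-positive cell lies above 0 for Klf5, while most cells of every set lie at 0 for Klf2.

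Single cells spread far more than plates. Klf4 ran from 0 to 283.7 TPM (median 13.5) over the 93 cells of dKO plate 1 and from 0 to 141.9 (median 12.4) on dKO plate 2. On cKO plates 1, 2 and 3 its highest cells held 248.0, 351.8 and 320.6 TPM, with medians of 23.7, 19.1 and 31.1 and a lowest value of 0 on each. The ranges of single cells overlapped fully between genotypes. Of the 8 members, a Sca-1-negative cell held a median of 3 at 10 TPM or more on both dKO plates, against 4 on each cKO plate, and single cells ranged from 0 to 8 members. The summed level of the 8 members averaged 164.5 and 150.5 TPM on dKO plates 1 and 2, against 231.2, 278.1 and 197.3 TPM on cKO plates 1, 2 and 3. The plates did not overlap in this mean, but how often sums of other genes do so was not tested. The sum weighs abundant members most. Klf3 alone held 47.7 and 42.6 TPM of it on the dKO plates, against 81.2, 112.9 and 57.8 TPM on the cKO plates.

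Klf4 and Klf6 were lower in dKO than in cKO cells. Klf4 averaged 31.96 and 29.2 TPM on dKO plates 1 and 2, against 51.2, 48.4 and 48.9 TPM on cKO plates 1, 2 and 3. That is 30.6 ± 1.97 TPM in dKO and 49.5 ± 1.48 TPM in cKO cells (SD over 2 and 3 plates), a log2 ratio of -0.68. Both dKO plates lay under every cKO plate, and the log2 ratio was -0.62 between the Xist plates and -0.73 between the Y plates. Klf4 reached 10 TPM in 55.8% of dKO cells (exact 95% binomial interval 47.6 to 63.8%) and 63.9% of cKO cells (56.5 to 70.9%), and these intervals overlap.

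Klf6, a zinc finger activator induced early by many stimuli, averaged 18.4 and 11.4 TPM on dKO plates 1 and 2, against 28.5, 26.5 and 25.9 TPM on cKO plates 1, 2 and 3. The dKO plates again lay under every cKO plate, with a log2 ratio of -0.81 (-0.55 between Xist plates, -1.12 between Y plates). Klf6 reached 10 TPM in 37.0% of dKO cells (29.4 to 45.2%) and 53.01% of cKO cells (45.5 to 60.4%), and here the intervals do not overlap. These intervals pool the cells of the plates, cover counting error only and not differences between animals, and are no test between genotypes. By plate, the share for Klf6 was 36.6% and 37.7% on the dKO plates, against 54.9%, 46.8% and 55.4% on the cKO plates.

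Klf2 and Klf3 were apart on only 1 of the scales used. Klf3 averaged 47.7 and 42.6 TPM on dKO plates 1 and 2, against 81.2, 112.9 and 57.8 TPM on cKO plates 1, 2 and 3, a log2 ratio of -0.88. In mean log2(TPM + 1), however, dKO plate 1 (4.57) lay above cKO plate 3 (4.30). Klf2 averaged 2.92 and 0.294 TPM on dKO plates 1 and 2, against 3.43, 5.91 and 3.14 TPM on cKO plates 1, 2 and 3, with a log2 ratio of -0.98. The low dKO value came mostly from plate 2, where 0 of 61 cells reached 10 TPM, which allows a share of up to 4.92%.

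The other members overlapped between genotypes. Klf13 averaged 14.9 and 11.2 TPM on the dKO plates, against 16.4, 24.1 and 13.6 TPM on the cKO plates (log2 ratio -0.44). Klf9 had a log2 ratio of -0.27, Klf10 of -0.08 and Klf5 of 0.05. Klf5 was thus close to even, at 34.1 and 42.9 TPM on the dKO plates, against 33.1, 45.5 and 33.02 TPM on the cKO plates.

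By the rule that a gene differ at least 1.5-fold with no overlap of plates on both scales, 2 of 8 members were lower in dKO cells, beside 3.95% of the 7060 measured genes. None was higher, beside 1.77% of measured genes. The median log2 ratio of the 7 measured members was -0.44, against -0.12 for all measured genes. Between Xist plates these medians were -0.42 and -0.23, and between Y plates -0.26 and 0.04. The call of Klf6 rested on dKO plate 2, without which its log2 ratio was -0.53. The call of Klf4 was lost when the ERCC rows and also the 5 most abundant rows were removed (-0.53) and with median-of-ratios size factors (-0.57).

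**Figure D2:**
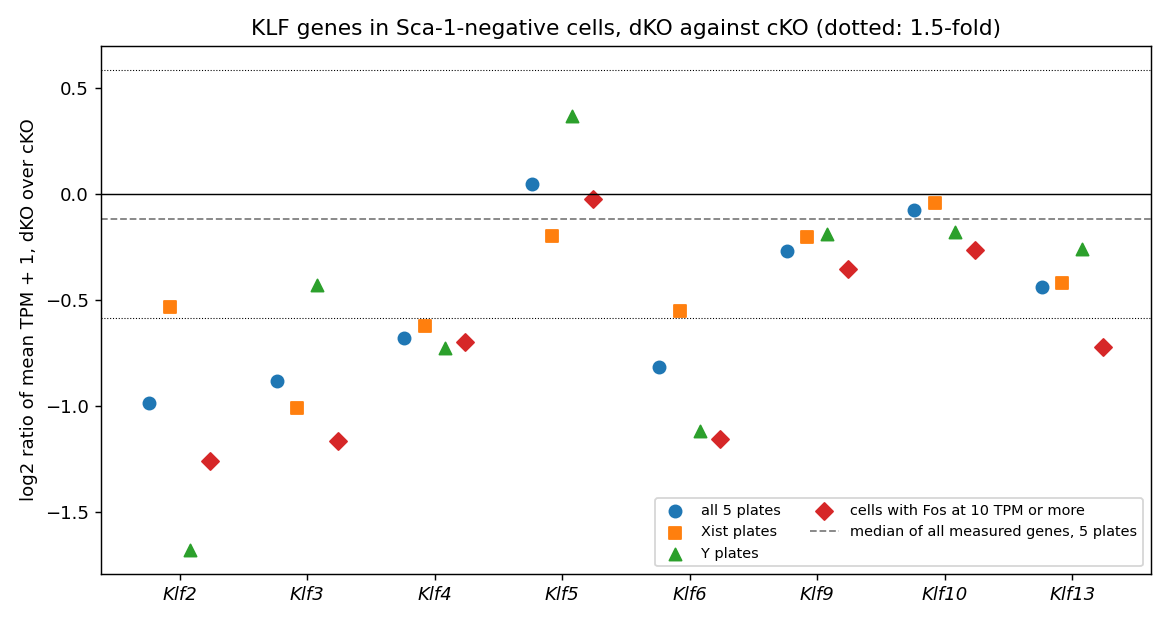
Log2 ratio of mean TPM + 1 in dKO over cKO Sca-1-negative cells for each KLF gene, over all 5 plates, within the Xist and the Y plates, and in cells with Fos at 10 TPM or more; dotted lines mark 1.5-fold. Klf4 lies between -0.62 and -0.73 in all of these, while Klf5 lies near 0 over all plates.

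Fos itself averaged 474.8 and 151.2 TPM on dKO plates 1 and 2, against 549.7, 702.8 and 277.2 TPM on cKO plates 1, 2 and 3 (log2 ratio -0.70), and the plates overlapped. Cells were divided by Fos at 10 TPM, a division chosen after the data were seen. Within the Fos-positive cells, Fos levels were not matched between plates, so a difference at like Fos was not tested. By this division the genotype difference of Klf6 stood in the Fos-positive cells. There Klf6 averaged 22.7 and 11.4 TPM on the dKO plates, against 42.6, 37.2 and 37.6 TPM on the cKO plates, a log2 ratio of -1.15. In cells with Fos under 10 TPM, Klf6 averaged 3.63 and 11.4 TPM on the dKO plates, against 6.70, 3.80 and 10.47 TPM on the cKO plates. That log2 ratio was 0.09, and the plates overlapped.

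Klf4 kept its direction in both kinds of cell. Its log2 ratio was -0.70 in Fos-positive cells, with the plates apart, and -0.90 in Fos-negative cells. In the Fos-negative cells the dKO plates held 12.96 and 24.98 TPM, against 32.6, 39.6 and 36.3 TPM on the cKO plates, and the plates overlapped in mean log2(TPM + 1). Klf2 and Klf3 also stood apart in Fos-positive cells, with log2 ratios of -1.26 and -1.16. Klf2 was low there, at 3.77 and 0.471 TPM on dKO plates 1 and 2. The share of all genes that stood apart in Fos-positive cells is not given, so the number of members apart there has no background. Klf5 was higher in dKO cells without Fos, at 28.7 and 21.3 TPM on the dKO plates, against 19.9, 3.24 and 17.5 TPM on the cKO plates (log2 ratio 0.84). These Fos-negative values rest on 21 and 30 dKO cells and on 28, 15 and 28 cKO cells.

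The levels of most members were related to that of Fos from cell to cell, though for none of them on every plate at a rho of 0.3 or more. Spearman's rho between a member and Fos was computed within each plate. It describes cells of 1 plate, which share their library preparation and differ in depth, so no p-value is given. Klf2 had the highest mean rho over the 5 Sca-1-negative plates at 0.51, followed by Klf6 at 0.48, Klf5 at 0.41, Klf4 at 0.41, Klf13 at 0.40 and Klf9 at 0.35. Klf3 (0.13) and Klf10 (0.09) had the lowest. The mean rho of all 6955 genes compared had a median of 0.02 and a 95th percentile of 0.18, and 1.29% of them reached 0.3. By this mean, a rule added after the data were seen, 6 of the 8 members reached 0.3. Klf2 is 1 of these, but lay under the 5 TPM minimum and is not among the 6955 genes.

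The relation varied with the plate. Klf6 had a rho of 0.45 and 0.11 on dKO plates 1 and 2, against 0.56, 0.68 and 0.59 on cKO plates 1, 2 and 3. Klf2 had 0.53 and 0.19 on the dKO plates, against 0.59, 0.74 and 0.47 on the cKO plates. Both were lowest on dKO plate 2, the plate with the lowest mean Fos. Klf4 had 0.52 and 0.23 on the dKO plates, against 0.41, 0.51 and 0.35 on the cKO plates. Klf13, a repressor that recruits Sin3a, had 0.33 and 0.14 on the dKO plates, against 0.49, 0.66 and 0.38 on the cKO plates. Klf5 differed from these in having its lowest value on dKO plate 1, 0.09, and 0.49 on the other dKO plate, against 0.36, 0.62 and 0.51 on the cKO plates.

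With these low plates included, 0 of 8 members reached a rho of 0.3 on each of the 5 plates, a level that 0.316% of genes reached. On the 4 plates other than dKO plate 2, left out after its values were seen, 4 members reached the level. These were Klf2, Klf4, Klf6 and Klf13, beside 0.561% of genes, a share counted without Klf2. Holding the number of genes detected constant left the mean rho at 0.50 for Klf2, 0.48 for Klf6 and 0.42 for Klf4. In the Sca-1-positive cells, Klf2 had a rho of 0.73 on dKO plate 2 and 0.69 on cKO plate 3, and Klf6 had 0.59 and 0.66. With only 19 and 22 cells, 12.2% and 11.7% of all genes reached 0.3 there.

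**Figure D3:**
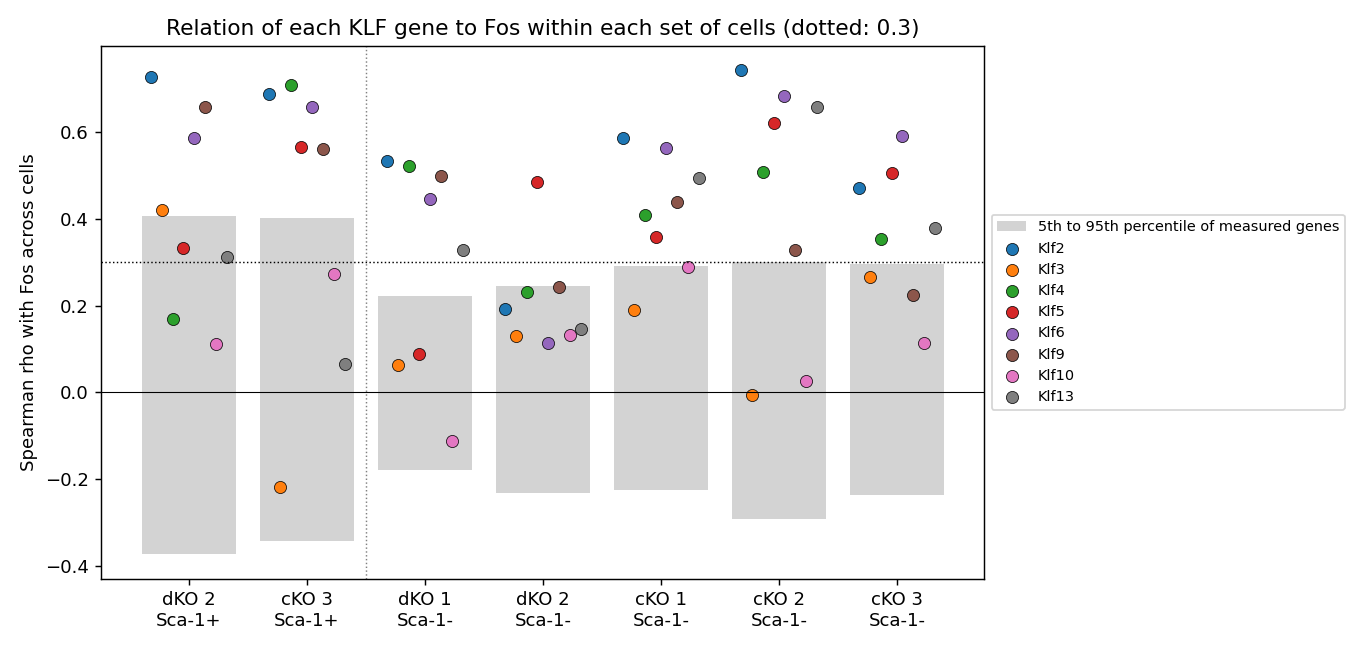
Spearman's rho with Fos across the cells of each set, for the 8 KLF genes (points) and for the central range of all measured genes (grey, 5th to 95th percentile). Klf2 and Klf6 lie above the grey range in every set except the Sca-1-negative cells of dKO plate 2, and Klf10 lies within it in every set.

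The same relation appeared in shares of cells. Over the Sca-1-negative cells of all plates together, Klf2 reached 10 TPM in 17.2% of the 215 cells with Fos at 10 TPM or more (12.4 to 22.9%), against 0.820% of the cells with less Fos (0.0207 to 4.48%). Klf6 did so in 56.7% of Fos-positive and 26.2% of Fos-negative cells, Klf5 in 66.5% and 30.3%, and Klf13 in 60.5% and 27.9%. Klf9 reached 10 TPM in 31.2% of Fos-positive and 11.5% of Fos-negative cells. Klf4 was common in both, in 66.5% of Fos-positive and 49.2% of Fos-negative cells. Klf3, at 72.6% and 67.2%, and Klf10, at 26.98% and 18.9%, had overlapping intervals. These shares pool plates of both genotypes, whose Fos-positive shares differ, and the intervals cover counting error only. On dKO plate 2 alone, Klf6 reached 10 TPM in 38.7% of Fos-positive and 36.7% of Fos-negative cells, and Klf2 in 0% of both. On every other Sca-1-negative plate, the shares of Klf6 and of Klf2 were higher in Fos-positive cells.

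The genes whose levels were most like each member were found among 2811 well-detected genes by the mean rho over the 5 plates. For Klf2 they were Fos (0.51), Zfp36 (0.48) and Dusp1 (0.48). For Klf4 they were Atf3 (0.43), Dusp1 (0.43) and Egr1 (0.42). Klf6 was nearest to Jun (0.52), Fosb (0.49) and Atf3 (0.48), and Klf9 to Atf3 (0.42), Fosb (0.40) and Jun (0.35). Klf13 was nearest to Egr2 (0.54), Dusp1 (0.47) and Junb (0.43). All of these are known as immediate early genes.

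Klf3 and Klf5 had other neighbours. Klf3 was nearest to Dsg1a (0.37), a desmosomal cadherin of differentiating keratinocytes, to Sfn (0.35) and to Susd2 (0.32). Klf5 was nearest to Plbd1 (0.53), Dsg1a (0.46) and Tmem45a (0.46). Klf5 was also the member with the lowest rho to the mean log2(TPM + 1) of 10 basal and bulge markers, with a mean of -0.44 and values between -0.52 and -0.32 over the 5 Sca-1-negative plates. In the Sca-1-positive cells the same rho was 0.31 on dKO plate 2 and 0.20 on cKO plate 3. For Klf10 no gene reached 0.3, and Tomm70a (0.25) and Cdkn1a (0.23) were among the nearest. Among the members themselves, 28 pairs had a median rho of 0.14, and the highest were Klf2 with Klf6 (0.42) and Klf2 with Klf4 (0.31).

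Klf5 was higher in Sca-1-positive cells on both plates that hold both gates. On dKO plate 2 it averaged 104.7 TPM in Sca-1-positive cells (lowest 16.2, median 78.02, highest 341.0) and 42.9 TPM in Sca-1-negative cells (0, 18.2 and 253.2). On cKO plate 3 it averaged 91.2 TPM in Sca-1-positive cells (15.1, 82.2 and 228.9) and 33.02 TPM in Sca-1-negative cells (0, 17.4 and 180.4). The log2 ratios were 1.27 and 1.44. All 19 and all 22 Sca-1-positive cells held Klf5 at 10 TPM or more, against 50.8% and 55.4% of Sca-1-negative cells. In cells with Fos at 10 TPM or more, where Fos levels were not matched between gates, the log2 ratios were 0.77 and 1.13.

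Klf2 was higher in Sca-1-positive cells as well, at 4.97 TPM against 0.294 TPM in Sca-1-negative cells of dKO plate 2 (log2 ratio 2.21) and at 5.39 against 3.14 TPM on cKO plate 3 (0.63). The Sca-1-positive cells with Klf2 at 10 TPM or more numbered 5 of 19 and 4 of 22. Klf10 ran the other way, at 3.31 TPM in Sca-1-positive and 7.59 TPM in Sca-1-negative cells of dKO plate 2 (log2 ratio -0.99), and at 4.53 and 8.72 TPM on cKO plate 3 (-0.81). Only 1 of 19 and 2 of 22 Sca-1-positive cells held Klf10 at 10 TPM or more, and the highest 5% of cells (rounded up to whole cells) carried 75.6% and 73.8% of its summed level. The values of these low members thus rest on few cells.

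Klf4, Klf6 and Klf9 were higher in Sca-1-positive cells by at least 1.5-fold on dKO plate 2 but not on cKO plate 3. Klf4 averaged 71.4 TPM in Sca-1-positive and 29.2 TPM in Sca-1-negative cells there (log2 ratio 1.26), and 53.04 and 48.9 TPM on cKO plate 3 (0.12). Klf6 averaged 42.5 and 11.4 TPM in Sca-1-positive and Sca-1-negative cells of dKO plate 2 (1.81), and 35.9 and 25.9 TPM on cKO plate 3 (0.45). Whether the gate difference differs between genotypes was not tested, since each has 1 plate with both gates. Klf9 had log2 ratios of 0.96 and 0.20, Klf13 of 0.38 and 0.26 and Klf3 of 0.29 and 0.08.

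By the 1.5-fold rule on both plates, 2 of 8 members (Klf2 and Klf5) were higher in Sca-1-positive cells and 1 (Klf10) was lower. Klf2 lay under the 5 TPM minimum and is not among the 6579 genes compared. Of the 7 members that are, only Klf5 was higher, beside 3.95% of those genes, and only Klf10 lower, beside 15.6%. The median log2 ratio of the 8 members was 1.11 on dKO plate 2 and 0.23 on cKO plate 3, against -0.31 and -0.17 for all genes. On the scale of mean log2(TPM + 1) the members past the rule were Klf3, Klf5, Klf6 and Klf9, all higher. The share of all genes past the rule on that scale is not given, and the shares above do not apply to it. Fos moved with the gate, at 949.3 TPM in Sca-1-positive and 151.2 TPM in Sca-1-negative cells of dKO plate 2, and at 554.2 and 277.2 TPM on cKO plate 3. In cells with Fos at 10 TPM or more, a division chosen after the data were seen, Klf2 averaged 5.25 TPM in Sca-1-positive and 0.471 TPM in Sca-1-negative cells of dKO plate 2 (log2 ratio 2.09), and 6.97 and 5.15 TPM on cKO plate 3 (0.38). Klf2 thereby no longer passed the rule on both plates, and Klf5 and Klf10 did. Among the same cells Klf4 had log2 ratios of 1.13 and 0.16 on dKO plate 2 and cKO plate 3, and Klf6 of 1.86 and 0.18. Fos levels within these cells were not matched between gates.

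**Figure D4:**
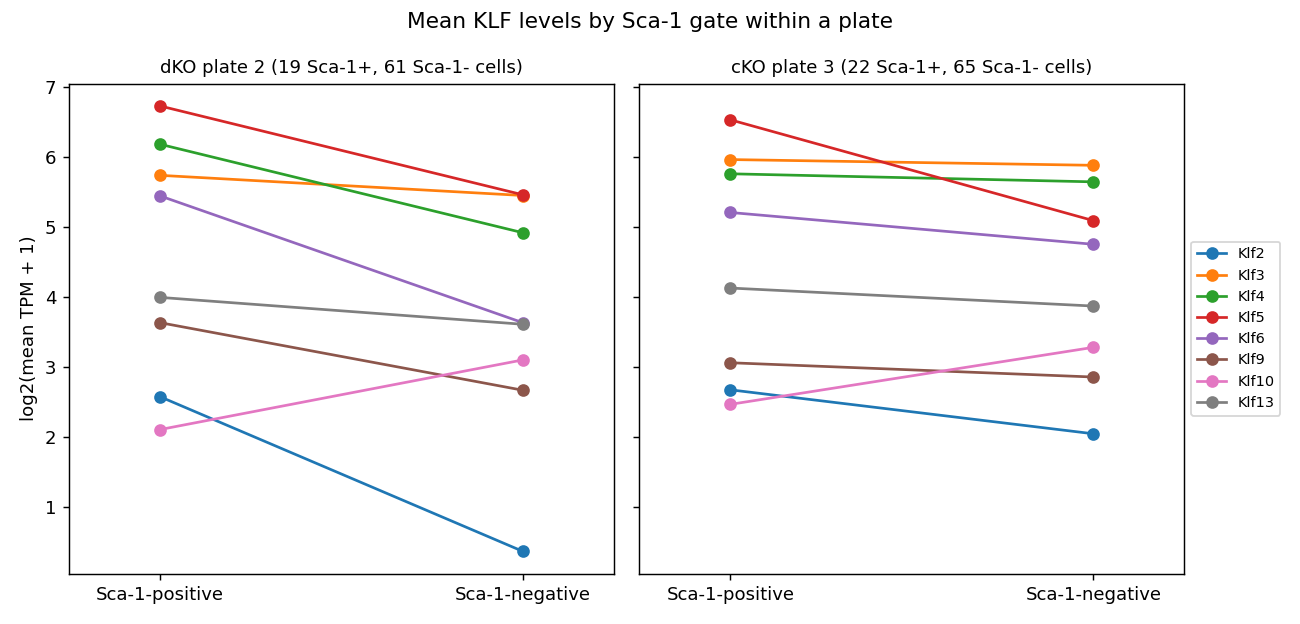
Mean TPM of each KLF gene, as log2(mean TPM + 1), in Sca-1-positive (left) and Sca-1-negative cells (right) of the 2 plates that hold both gates. Lines for Klf5 fall to the right by 1.27 and 1.44 on dKO plate 2 and cKO plate 3, and the line for Klf10 rises on both.

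Between genotypes, the Sca-1-positive cells of dKO plate 2 and cKO plate 3 showed no lower Klf4 or Klf6. Klf4 averaged 71.4 TPM in dKO and 53.04 TPM in cKO Sca-1-positive cells (log2 ratio 0.42), and Klf6 averaged 42.5 and 35.9 TPM (0.24). These cells come from 1 plate of each genotype. The largest log2 ratio of a member was that of Klf9, 0.57.

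Of 18 other KLF and SP genes, which bind similar sequences, 4 were measured and none was apart between genotypes, with a median log2 ratio of -0.45; the highest were Sp1 and Klf11. In the gate comparison none of 3 passed. Of 12 partners and regulators of KLF proteins, 9 were measured and none was apart between genotypes. Among them Ctbp1, the co-repressor that KLF3 recruits, averaged 34.5 and 46.8 TPM on the dKO plates, against 52.05, 60.9 and 66.5 TPM on the cKO plates, with a log2 ratio of -0.55. Sin3a had a log2 ratio of -0.43. By gate, 10 of the partners and regulators were compared. Fbxw7, a ubiquitin ligase subunit that targets KLF5 for degradation, was higher in Sca-1-positive cells (log2 ratios 1.60 and 1.18). Hdac2 (-0.96 and -0.82) and Wdr5 (-0.64 and -3.05) were lower. Of all 6579 genes compared by gate, 3.95% were higher and 15.6% lower in Sca-1-positive cells. These shares also stand beside the gate counts of the lists below. Between genotypes, 1.77% of all measured genes were higher and 3.95% lower in dKO cells.

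Of 23 immediate early genes other than KLF genes, 19 were measured and none was apart between genotypes, with a median log2 ratio of -0.77. Of the 19, 11 reached a rho of 0.3 with Fos on all 5 plates, while no KLF member did. By gate, 10 of 19 compared were higher in Sca-1-positive cells, among them Atf3 (log2 ratios 3.25 and 1.43), and 2 were lower. Of 9 glucocorticoid response genes, 7 were measured and 1, Zbtb16, was lower in dKO cells (log2 ratio -0.95). By gate, 3 of 8 compared, Mt2, Mt1 and Tsc22d3, were higher in Sca-1-positive cells and Sgk1 was lower. Of 9 TGF-β response genes, 5 were measured and none was apart between genotypes. By gate, 5 were compared, of which Tgfbi was higher and Ski lower in Sca-1-positive cells. Of 6 CDK inhibitors and cyclins named as KLF targets, 4 were measured and none passed in either comparison; Ccnd2 and Cdkn1a were the highest.

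Markers of the keratinocyte states moved with the groups. Between genotypes, 1 of 9 measured basal and bulge markers (Krt15, log2 ratio -1.28) and 1 of 6 upper follicle markers (Lgr6) were lower in dKO cells, and 1 of 6 suprabasal markers (Krtdap, 1.38) was higher. By gate, 3 of 8 basal and bulge markers (Krt5, Krt14 and Itga6) were higher and 4 (Cd34, Lgr5, Sox9 and Nfatc1) lower in Sca-1-positive cells. Of 6 upper follicle markers, Ly6a was higher and Krt79, Lrig1 and Cst6 were lower in Sca-1-positive cells. Of 6 suprabasal markers, Krt1, Krt10 and Dsg1a were higher and Sbsn and Calml3 lower. Their part in the KLF differences was not tested. No cell held 3 or more markers, at 10 TPM or more each, of endothelial, immune, fibroblast, melanocyte, Schwann, Merkel or erythroid cells. The summed endothelial markers, which matter for Klf2, averaged 0.682 and 2.10 TPM on the dKO plates, against 0.173, 0.169 and 0.631 TPM on the cKO plates, with Cdh5, Kdr and Tek at 0. The summed immune markers averaged 14.3 and 11.2 TPM on the dKO plates, against 32.6, 30.9 and 14.8 TPM on the cKO plates. The summed fibroblast markers averaged 11.8 and 23.8 TPM on the dKO plates, against 7.16, 2.69 and 4.34 TPM on the cKO plates. Nearly all of the dKO sum was Col1a1, the 1 measured among them, which was higher in dKO cells (log2 ratio 2.46). Col1a2, under the minimum, ran the other way, at 0 TPM on both dKO plates, against 3.56, 1.92 and 0.501 TPM on the cKO plates.

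Smart-seq2 does not mark strand. On GRCm38, Klf3 lies at chr5:64803388-64832901, Klf5 at chr14:99298691-99315036, Klf9 at chr19:23141226-23168134 and Klf10 at chr15:38291463-38300706, and all 8 members are protein-coding genes. The antisense gene Gm20033 overlaps an exon of Klf3 and averaged under 1 TPM in every set. Reads from the shared bases of this pair cannot be told apart without strand marks. Genes that overlap Klf9 and Klf13 do so outside their exons, and no annotated gene overlaps Klf2, Klf4, Klf5, Klf6 or Klf10.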

How the data were processed

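Single cells were made into Smart-seq2 libraries with a Nextera XT kit, per the labels' protocols, without molecular identifiers or strand marks. The deposited table holds TPM, per its values, since all 384 columns have the same sum within rounding. The submitters' processing notes name Bowtie2 2.2.9, RSEM 1.2.30 and the mm10 (GRCm38) build, with the annotation release not given in the sources used here. TPM keeps no depth, so genes detected at 1 TPM stand in for it. Rn18s-rs5 took 57.9% of the TPM on average, and other genes read lower where its share is higher. In Sca-1-negative cells its share was 61.5% and 56.03% on dKO plates 1 and 2, against 56.25%, 56.8% and 55.3% on cKO plates 1, 2 and 3. In Sca-1-positive cells it was 60.9% on dKO plate 2 and 60.4% on cKO plate 3.

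Cells with at least 1000 genes at 1 TPM were kept. Groups and plates came from the genotype and sorting labels and from titles, whose number was read as a plate. No 2 columns were identical. Mean TPM per plate was averaged over plates with equal weight, and ratios used log2 of mean TPM plus 1 TPM, which makes differences of low genes look smaller, while the deposited TPM are on a linear scale. Measured genes averaged at least 5 TPM. The neighbours named are the 3 genes of highest mean rho per member, detected at 10 TPM in at least 25% of the cells of every plate, leaving out predicted genes, mitochondrial genes and those of ribosomal proteins. Of these neighbours, 1 is not reported here. Of each list, up to 3 genes past the size rule with the largest ratio are named, or the 2 of highest TPM; other names were chosen after their values were seen. Intervals are exact 95% binomial ones, and a share of 0 has an upper limit of 3 cells over the cells counted; they allow for counting error alone. Gene overlaps were taken from GENCODE on GRCm38.

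The members and gene lists were chosen with earlier results of these data known. Alternatives were other pseudocounts, filters, scalings, ratios and thresholds, other anchors than Fos and leaving out each plate. Scripts ran in Python 3.11.15 with numpy 2.4.6, pandas 2.3.3, scipy 1.17.1 and matplotlib 3.10.9 and were checked on simulated data.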

Additional observations from a re-analysis of the deposited data

How the results depend on the processing

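Between genotypes, the count of 2 members apart (Klf4 and Klf6) became 0 with a pseudocount of 10 TPM and 0 at a ratio of 2. It became 1 (Klf6) with differences of mean log2, when the ERCC rows and also the 5 most abundant rows were removed, and with size factors. Leaving out 1 cKO plate gave 2 to 4 members, with 4 without cKO plate 3 (Klf2 and Klf3 added). Leaving out a dKO plate keeps 1 dKO plate, so only ratios are given. The log2 ratio of Klf4 was -0.615 without dKO plate 2 and -0.742 without dKO plate 1, and that of Klf6 was -0.526 and -1.173. The Xist plates and the Y plates also hold 1 dKO plate each. Between Xist plates and between Y plates, the log2 ratio was -0.533 and -1.677 for Klf2 and -1.011 and -0.431 for Klf3. No share of all genes is given here beside the counts under these alternatives between genotypes, or beside those by gate and for Fos below. These counts are therefore not compared with all genes. Chosen after the data were seen were the division by Fos, with 4 members in cells at 10 TPM or more and 1 (Klf5, higher) in cells under it, where the log2 ratio of Klf6 turned to 0.094, and overlap judged in mean TPM alone, with 4. By gate, the count of 3 became 1 (Klf5) with a pseudocount of 10 TPM and 1 (Klf5) at a ratio of 2. In cells with Fos at 10 TPM or more, added after the data were seen, it was 2 (Klf5 and Klf10), without Klf2. For Fos, the count of 0 became 1 with Junb (Klf13) and 1 with Egr1 (Klf4) in its place, 4 in Sca-1-positive cells, 2 (Klf4 and Klf9) at a rho of 0.2, and 6 by the mean rho, a rule added after the data were seen. Leaving out 1 plate gave 0 to 4, with 4 without dKO plate 2 and 1 (Klf5) without dKO plate 1. The causes of these changes were not tested. No paired analysis was possible because the results come from no test, and plates 2 of dKO and cKO, which share a number, differ in kind (Y-linked and Xist RNA). Of the members' own values under these alternatives, 8 genotype ratios, 45 gate ratios and 3 values of rho moved by more than their spread, without a change of sign in a called value other than that of Klf6. At thresholds of 1 and 50 TPM in place of 10, all 32 shares of cells left their intervals. Unknown read depth and sets of 19 to 93 cells limit the low members Klf2, Klf9 and Klf10.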
